A study of Caenorhabditis elegans with 4 samples.

Results

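The X chromosome of Caenorhabditis elegans carried 570 of the 4256 NFYA-1 binding peaks in the authors' combined list, 352 of 3037 in ChIP replicate 1 and 246 of 2188 in ChIP replicate 2. These regions were chosen by chromosome alone, as every combined peak listed on X together with the replicate peaks that share at least 1 bp with it. They were measured by chromatin immunoprecipitation and sequencing (ChIP-seq) with an antibody against green fluorescent protein (GFP), in hermaphrodites harvested at the L3 larval stage and grown at 20 °C. All 4 samples, 2 ChIP and 2 input (total chromatin DNA), came from strain OP404, which carries the unc-119 allele ed3 on chromosome III and the transgene wgIs404. The transgene, introduced by bombardment, encodes nfya-1 fused to TY1-GFP-3xFLA and includes a working unc-119 gene. The genotype lists no change of the endogenous nfya-1 gene, and no sample is an untagged strain. Chromatin came from whole larvae, so a peak averages over all tissues, and the labels do not say whether the 2 ChIP replicates were separate cultures.

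NFYA-1 is a DNA-contacting subunit of NF-Y, a trimeric transcription factor that binds CCAAT boxes, usually in promoters, and can activate or repress the genes it binds. Hermaphrodite worms have a pair of X chromosomes, on which a condensin-containing dosage compensation complex lowers transcription to match that of males with a single X. X is also largely silent in the germ line. The nfya-1 gene itself lies on X, and peaks at the sequence that the transgene carries were not looked for here.

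Each peak has a position on the WormBase WS180 build and a q value (false discovery rate) from the PeakSeq peak caller, both the authors' own. Strength is given here as −log10 of that q value, and rank 1 is the smallest q of a list. Genes and sequences under the peaks were not analysed here. The lists hold no read counts, so the depth behind a peak is unknown.

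Over each whole list, X held a smaller share of the peaks than of the chromosome length. It made up 17.6% of the summed chromosome extents (the largest peak coordinate on each chromosome) and 13.4% of combined peaks, 11.6% of replicate 1 peaks and 11.2% of replicate 2 peaks. The X share varied with strength. In the combined list X supplied 5 of the 25 strongest peaks (20%, exact 95% binomial interval 6.83 to 40.7%). That interval includes the 17.6% share of length, and each replicate list had 4 of its 25 strongest peaks on X (16%). In the weakest 20% of the combined list, X supplied 161 of 851 peaks. In between the X share was lower, with 12 of the strongest 100, 57 of the strongest 500 and 102 of the strongest 1000 (10.2%, 8.39 to 12.2%). In the replicate lists, 102 of the strongest 1000 peaks of replicate 1 and 107 of those of replicate 2 were on X. Peaks covered 442 kb, or 2.50%, of X, against 2.86% of the autosomes and between 2.16% (V) and 3.93% (III) of single autosomes. X carried 32.3 peaks per Mb in the combined list and the autosomes 44.7, a ratio of 0.723 (95% interval 0.661 to 0.790). In replicate 1 the densities were 20.0 per Mb on X and 32.6 on the autosomes, and in replicate 2 they were 13.9 on X and 23.6 on the autosomes. Chromosome V was the sparsest autosome, with 30.3 peaks per Mb in the combined list, 22.3 in replicate 1 and 15.98 in replicate 2. X was therefore denser than V in the combined list and sparser in each replicate, but the 95% intervals of the 2 densities overlapped in all 3 lists. In the combined list they were 29.7 to 35.1 per Mb on X and 28.0 to 32.8 on V. The covered share of X was above that of V in all 3, at 1.57% on X and 1.50% on V in replicate 1 and 1.14% on X and 1.04% on V in replicate 2.

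The X peaks ranged in strength from 3.60 to 251, with a median of 7.41 (quartiles 4.89 and 16.2). Autosomal peaks had a median of 9.88 (quartiles 5.85 and 19.9), and single autosomes had medians between 9.19 (II) and 10.8 (III), so the X median was below all 5 in this list. In replicate 1 the X median of 7.32 was also below those of all 5, but in replicate 2 it was 7.78 and lay above those of II (7.56), IV (7.72) and V (7.52). The excess of weak peaks was seen when every list was divided by strength into 5 groups of 20%. Of X peaks in the combined list, 161 (28.2%) fell in the weakest 20% of the list and 83 (14.6%) in the strongest 20%, whereas autosomal peaks had 18.7% in the weakest and 20.9% in the strongest. In replicate 1 the weakest 20% held 23.3% of X peaks and 19.6% of autosomal peaks. In replicate 2 it held 26.0% of X peaks and 19.3% of autosomal peaks. The strongest 20% of replicate 2 held nearly the same share of each, 19.5% of X peaks and 20.1% of autosomal peaks.

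Along X, peaks were spread over the whole chromosome, with more toward the right end. When the X extent was cut into 3 parts of equal length, the right part (11760782 to 17641172) held 215 combined peaks, or 37.7% (33.7 to 41.8%). The left part had 177 (31.1%, 27.3 to 35.0%) and the centre part 178 (31.2%, 27.4 to 35.2%). Densities were 36.6 peaks per Mb on the right (31.8 to 41.8), 30.1 on the left (25.8 to 34.9) and 30.3 in the centre (26.0 to 35.1), so these intervals overlap. The right part was first in both replicates too, with 135 of 352 peaks in replicate 1 (38.4%) and 93 of 246 in replicate 2 (37.8%). The right part was not richer in strong peaks. Its median strength was 6.98, against 7.61 on the left and 7.75 in the centre, and it held 23 peaks of the strongest 20% of the list, against 29 on the left and 31 in the centre. Without regard to strength, recovery was nearly even, since 40.9% of peaks on the right, 40.7% on the left and 40.4% in the centre overlapped a peak of both replicates. It was not even at like strength in the middle 20% of the list. There 25 of 38 peaks on the right, 13 of 30 in the centre and 7 of 25 on the left were in both. In the strongest 20% all peaks of each part were in both. This difference between parts was not tested. On the autosomes the centre part held between 35.5% (III) and 42.7% (I) of combined peaks, more than the 31.2% on X. In replicate 2 the autosomal range was 33.2% to 41.8%, and X had 31.7%. The larger right part was not particular to X. In the combined list it held 37.8% on II and 38.2% on III, against 28.2% on I, 29.4% on IV and 26.5% on V.

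In 500 kb bins, numbered from the left end, no full bin of X was empty in any list. The 35 full bins held 7 to 26 combined peaks (median 17, quartiles 11.5 and 19), 4 to 18 replicate 1 peaks (median 10) and 2 to 14 replicate 2 peaks (median 7). The densest bin, from 14500001 to 15000000, had 26 combined peaks, of which 14 were in both replicates, and it also had the most peaks in each replicate, with 18 and 14. The next were 4000001 to 4500000 and 13500001 to 14000000, with 22 combined peaks each, but 9 and 7 of these were in both replicates. The sparsest bin, from 9000001 to 9500000, had 7 combined, 4 replicate 1 and 2 replicate 2 peaks. The bin from 6500001 to 7000000 had only 8 combined peaks, yet they covered 15.8 kb, because it holds the widest X region. Sparse bins were not alike in strength. In the first bin, from 1 to 500000, 7 of 8 peaks were in both replicates and the median strength was 18.0. In the bin from 6500001 to 7000000, 5 of 8 were in both and the median was 10.2. In the sparsest bin 2 of 7 were in both and the median was 6.51, below the X median of 7.41.

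**Figure D1:**
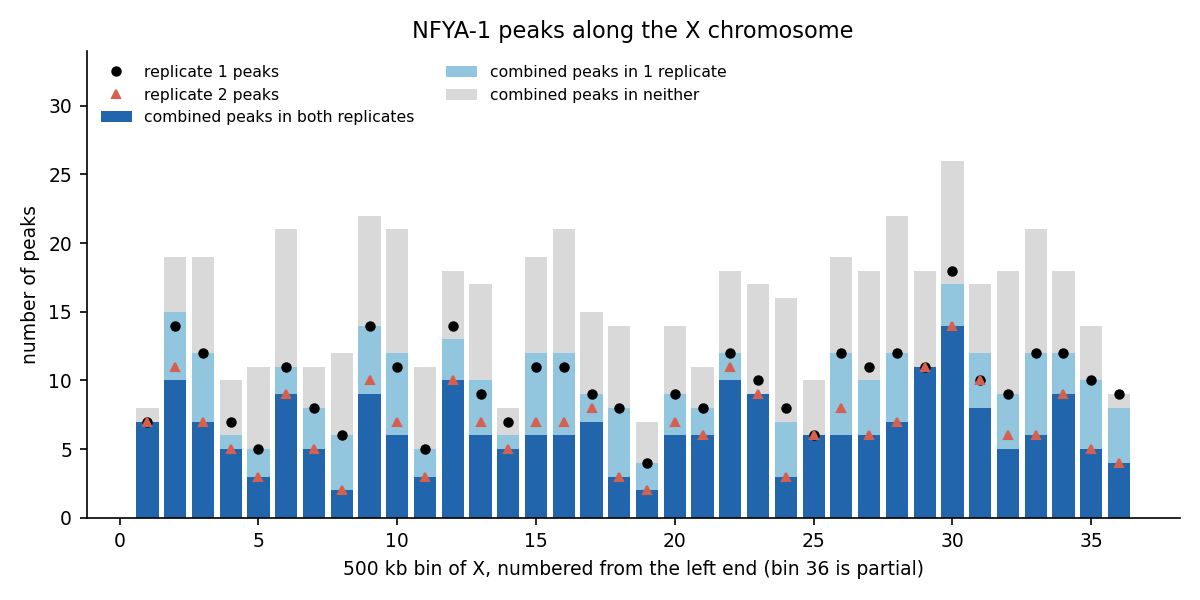
Number of NFYA-1 peaks in each 500 kb bin of X, from the left end, with combined peaks stacked by whether they overlap a peak of both replicates, 1 replicate or neither, and points for the peaks of each replicate list. The tallest bar is bin 30, with 26 combined peaks, and the shortest full bin is bin 19, with 7.

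The left tip of X stood out for the absence of peaks. The first X peak began at 323991 in the combined list, at 323993 in replicate 1 and at 323987 in replicate 2, so that the first 324 kb had no peak in any list. On the autosomes the first combined peak began between 3.58 kb (I) and 126 kb (IV) from the left end. Inside X, the longest stretch between neighbouring combined peaks ran from 3246237 to 3605694 (359 kb). It was followed by 1627477 to 1856163 (229 kb), 5429878 to 5653725 (224 kb), 9150554 to 9337646 (187 kb) and 1122620 to 1302177 (180 kb). None of these 5 stretches contained a whole replicate peak. Of the 5, 4 lay in the left part of X, but the stretches next in length, of 158 to 146 kb, all lay in the centre or right part. X had 33 stretches longer than 100 kb, which added up to 4.69 Mb, against 46 on V (7.48 Mb) and 7 to 22 on the other autosomes. The median distance between neighbours was 17.0 kb on X and 10.9 kb on the autosomes, of which V, at 16.2 kb, was nearest to X.

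Clusters, taken as 3 or more combined peaks with at most 5000 bp between neighbours, were fewer on X than on any autosome per Mb. There were 29 on X (1.64 per Mb), against 272 on the autosomes (3.30 per Mb), where the range was 2.01 (V) to 6.32 (III). They held 108 of 570 X peaks (18.9%, 15.8 to 22.4%), against 967 of 3686 autosomal peaks (26.2%, 24.8 to 27.7%) and 25.3% of all combined peaks. A low share in clusters was not particular to X. The share was 20% on I (17.2 to 23.1%) and 22.4% on V (19.2 to 25.8%), and the intervals of I, II and V overlapped that of X. Those of III, where the share was highest at 35.1%, and of IV lay above it. On X, clustered peaks were found in both replicates about as often as the others (40.7% in clusters, 40.7% outside), while on the autosomes the shares were 54.6% in clusters and 47.5% outside. The X share in clusters had a wide interval (31.4 to 50.6%). Clustered peaks were stronger, at a median of 11.3 against 9.44 outside on the autosomes and 7.87 against 7.14 on X. These shares were not compared at like strength. The number of clusters depended on the list, since the same definition gave 14 on X in replicate 1, 5 in replicate 2 and 3 among the stronger 50% of combined peaks.

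Of the 6 clusters with 5 or more peaks, 5 held a region wider than 2000 bp. The cluster from 11462944 to 11483297 (20.4 kb) had 6 combined peaks, 83.2% of its span was covered, and its widest peak measured 6993 bp. Of its 6 peaks, 3 were in both replicates and 3 in neither. The other cluster of 6, from 12654975 to 12672242 (17.3 kb), was 49.8% covered and had a widest peak of 5631 bp. Clusters of 5 lay at 4132232 to 4148478 (best peak rank 16 of the combined list), 5811787 to 5820517 (best rank 309), 3099820 to 3117742 (best rank 397) and 15606600 to 15617399 (best rank 616). In these 6 clusters the replicate lists had fewer peaks than the combined list, with 3 or 4 in each except the last, which had 3 in replicate 1 and 1 in replicate 2. Only combined peaks define a cluster here, so adjoining weak calls beside a broad region count as members.

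The strongest X regions were of mixed width. All were found in both replicates, which is not independent support, because the combined list draws on the same 2 ChIP samples. Of the 15 X peaks with the smallest q values, 9 were 2000 bp or wider and 4 were under 1000 bp, and 5 lay in each of the 3 parts of X. The strongest, 16929155 to 16932120 (2966 bp, rank 3 of all combined peaks), had a strength of 251 in the combined list, 153 in replicate 1 and 115 in replicate 2. Second on X came 4142080 to 4148478 (6399 bp), with a combined strength of 157, and it differed most in rank between the replicates among the first 5, at rank 32 in replicate 1 and 155 in replicate 2, where it was called as 2 peaks.

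The region 6090647 to 6093577 (2931 bp) led X in each replicate, with q values of 1.52e-158 in replicate 1 and 3.36e-148 in replicate 2. Its combined q of 5.32e-157 was no smaller than that of replicate 1, and it was the third on X in the combined list. At 4523319 to 4526709 (3391 bp) the combined q was smaller than both replicate values by little, with a strength of 139 combined, 132 in replicate 1 and 128 in replicate 2. By contrast, 6735431 to 6745995, the widest X region at 10565 bp, had a combined strength of 139 with 51.8 in replicate 1 and 51.0 in replicate 2. Over the X peaks matched one to one with a single peak of each replicate (n = 225), the combined strength had a median of 0.989 times the summed strengths of its replicate peaks (quartiles 0.856 and 1.10), against 0.953 over 1780 autosomal peaks. Of the 232 X peaks in both replicates, 4 (1.72%, 0.472 to 4.36%) had a combined strength no greater than that of the better replicate, against 24 of 1820 autosomal peaks (1.32%, 0.847 to 1.96%).

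Compact strong sites were also present. The region 7068202 to 7068785, 584 bp wide and seventh on X, ranked 25 in replicate 1 and 22 in replicate 2, and its nearest combined neighbour lay 113 kb away. At 1870921 to 1871469 the 3 lists called nearly the same interval, 549 bp wide when combined, 541 bp wide for replicate 1 and 527 bp wide for replicate 2. The region 15840898 to 15841780 (883 bp) had a strength of 79.0 combined, 62.0 in replicate 1 and 63.7 in replicate 2, and was the only one of the 15 that was stronger in replicate 2. The largest disagreement in rank among the 15 was at 11093705 to 11094478 (774 bp), which ranked 58 in replicate 1 and 234 in replicate 2. The 15 strongest X peaks of replicate 1 included 14 that overlap these regions, and those of replicate 2 included 12. The strongest X peaks of the replicate lists that lie outside the 15 were at 2242727 to 2243271 in replicate 1 (rank 114) and at 2242739 to 2243210 in replicate 2 (rank 83), which are the same site, seventeenth on X in the combined list.

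**Figure D2:**
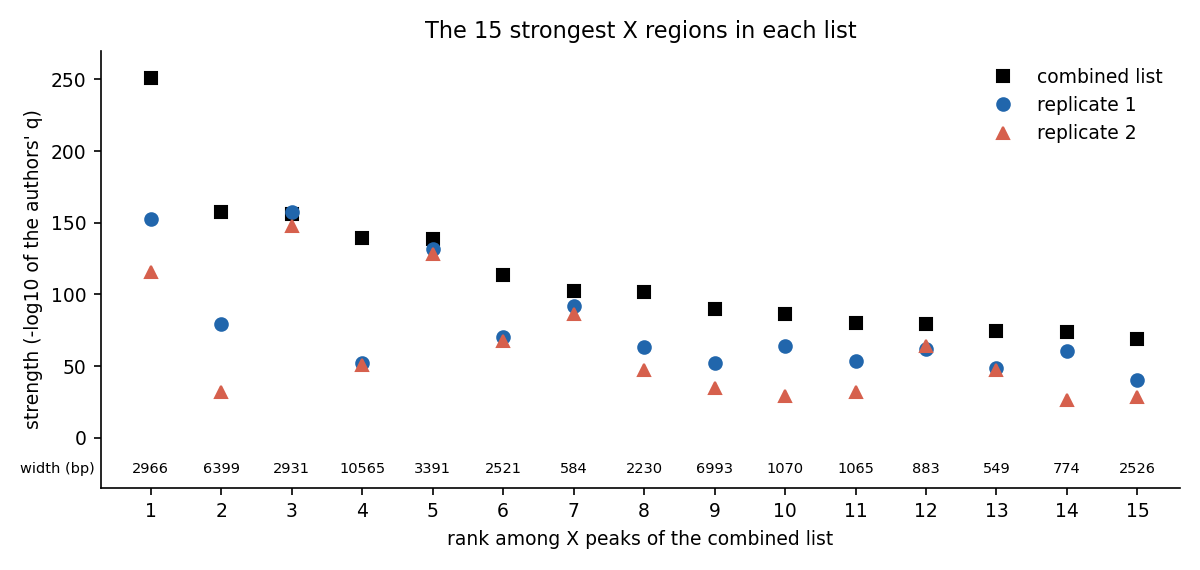
Strength, as −log10 of the authors' q value, of the 15 strongest X regions in the combined list and of the best overlapping peak in each replicate, with the combined width in bp printed under each region. Replicate 1 lies above replicate 2 at 14 of the 15, and at the third one the combined value of 156 is below that of replicate 1 (158).

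Broad regions made up a larger part of the X list than of the autosomal one. On X, 30 of 570 peaks (5.26%, 3.58 to 7.43%) were 2000 bp or wider, against 126 of 3686 on the autosomes (3.42%, 2.86 to 4.06%) and 3.67% of all combined peaks, so the 2 intervals overlap. The X share was above each autosome in the combined list, where II was next at 4.44%, in replicate 1 (5.68% on X, 4.59% on II) and in replicate 2 (5.69% on X, 3.59% on V). The 30 broad X regions summed to 103 kb, or 23.2% of all sequence under X peaks, against 18.3% on the autosomes.

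Not every wide region was strong. After 6735431 to 6745995 came 11470272 to 11477264 (6993 bp, combined strength 89.7), 4142080 to 4148478 and 12663087 to 12668717 (5631 bp, strength 57.8). The 10 widest regions ranged in strength from 9.06 to 157 and 4 of them were among the 15 strongest. The weakest of the 10, 14789942 to 14793485 (3544 bp), ranked 2230 of 4256 in the combined list, 2627 in replicate 1 and 2024 in replicate 2. Of the 30 broad regions, 25 overlapped both replicates, 1 replicate 1 alone, 1 replicate 2 alone and 3 neither. The share in both, 83.3% (65.3 to 94.4%), was close to that of broad autosomal regions, at 102 of 126 (81.0%, 73.0 to 87.4%). Among all combined peaks it was 48.2%. The 3 in neither, looked up after the count was seen, were 12174458 to 12176999 (2542 bp), 11480995 to 11483297 (2303 bp) and 11477646 to 11480359 (2714 bp), the last 2 of which belong to the 20.4 kb cluster named above. Regions called as more than 1 peak by a replicate were mostly broad ones. Over all X peaks that a replicate overlapped, 4 of 341 were split in replicate 1 (1.17%) and 3 of 242 in replicate 2 (1.24%). The autosomal shares were 0.873% in replicate 1 and 1.36% in replicate 2. In replicate 1, 3 of the 26 broad X regions it overlapped were split, and in replicate 2 also 3 of 26. Splitting of broad regions was not particular to X, with 17 of 116 on the autosomes in replicate 1 and 18 of 105 in replicate 2.

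The next comparison asked whether X peaks were wider than autosomal peaks of the same strength, since wide peaks tended to be strong and X peaks tended to be weak. They were wider in each of the 5 strength groups and in each list. In the strongest 20% of the combined list the median width was 817 bp on X (quartiles 566.5 and 1373.5 bp, n = 83) and 633 bp on the autosomes (430 and 1032 bp, n = 769). In the second 20% it was 663 bp on X and 473 bp on the autosomes, and in the weakest 480 bp on X (n = 161) and 372 bp on the autosomes (n = 690). In each of these 3 groups the X median also exceeded that of every single autosome, the highest of which were 744 bp (IV), 529 bp (V) and 390 bp (I). The replicate lists gave the same picture. In replicate 1 the medians of the strongest 20% were 784 bp on X and 577.5 bp on the autosomes, and those of the weakest 20% were 431 bp on X and 361.5 bp on the autosomes. In replicate 2 they were 726.5 bp on X and 568 bp on the autosomes in the strongest 20%, and 476.5 bp on X and 354.5 bp on the autosomes in the weakest 20%.

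**Figure D3:**
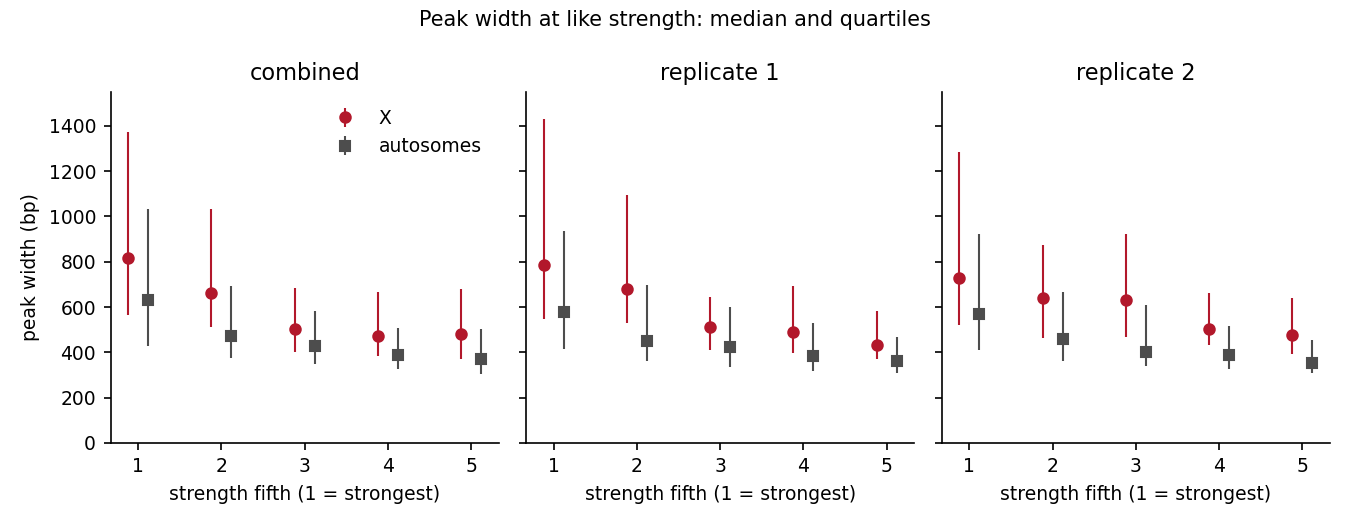
Median peak width in bp (points) with quartiles (lines) in 5 strength groups of 20% of each list, for X (red) and autosomes (grey), in the combined list and in each replicate. The X point is the higher one in all 15 pairs, for example 817 against 633 bp in the strongest 20% of the combined list.

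A linear fit of log2 width over all peaks, with a spline of strength and errors clustered on 500 kb bins, gave the size of the difference. At like strength, X peaks were 1.28 times as wide as autosomal peaks in the combined list (95% interval 1.20 to 1.35). The ratio was 1.30 in replicate 1 (1.22 to 1.38) and 1.36 in replicate 2 (1.27 to 1.46), each of which excludes 1. When each autosome was set against the other 4 in the same way, the ratios ran from 0.888 on III (0.827 to 0.954) to 1.12 on V (1.06 to 1.18), so chromosomes other than X also differed, by less. Set directly against V, the autosome nearest to it in density, X peaks were 1.16 times as wide in the combined list (1.08 to 1.24), 1.19 times in replicate 1 (1.10 to 1.28) and 1.28 times in replicate 2 (1.17 to 1.39). V was picked for this after the densities were known. The intervals rest on the spread between bins of the same 2 ChIP samples. With 1 X chromosome and 2 replicates no test across samples was possible, and any effect of a region's width on its q value cannot be separated from a difference in width at equal binding.

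Differences in width were found through the bulk of the X list and not in its broad regions alone. Peaks of 500 to 1000 bp made up 40.9% of X peaks and 28.5% of autosomal peaks. Peaks under 300 bp made up 3.86% of X peaks and 9.14% of autosomal peaks, and those from 300 to 500 bp 38.4% on X and 51.1% on the autosomes. Within X, widths were close between the 3 parts, at a median of 537 bp on the right, 550 bp on the left and 559 bp in the centre. Over one-to-one matched X peaks the replicates called slightly narrower regions than the combined list, with medians of 626 bp in replicate 1, 563 bp in replicate 2 and 675 bp combined. The matching autosomal medians were 450 bp, 414 bp and 495 bp.

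Recovery in the replicates was examined last. The combined list and the replicate lists come from the same 2 ChIP samples, so recovery is not an independent check of a combined peak. Of the 570 X peaks, 232 (40.7%, 36.6 to 44.9%) overlapped both replicates, 109 replicate 1 alone, 10 replicate 2 alone and 219 (38.4%, 34.4 to 42.6%) neither. Among all combined peaks the share in both was 48.2% and the share in neither 27.6%, and on the autosomes the shares were 49.4% and 26.0%. X peaks in both replicates had a median strength of 18.6 and a median width of 688.5 bp, and those in neither 4.59 and 469 bp. The lower overall recovery on X went with the lower strength of its peaks. Without strength in the fit, the odds that an X peak was in neither replicate were 1.78 times those of an autosomal peak (1.54 to 2.06, errors clustered on 500 kb bins). With strength in a logistic fit over all 4256 peaks the ratio was 1.22 (0.919 to 1.61), and for being in both replicates it was 0.704 without strength (0.582 to 0.851) and 1.37 with it (0.940 to 2.01). Both intervals at like strength include 1 and remain wide, so neither a difference nor equal recovery was shown. The direction also turned with the replicate used, as the odds of recovery on X against autosomes were 0.90 times for replicate 1 taken alone and 1.17 times for replicate 2 taken alone.

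The 5 strength groups gave the same values in detail. In the strongest 20%, all 83 X peaks and all 769 autosomal peaks were in both replicates. In the second 20%, 96 of 101 X peaks (95% interval 88.8 to 98.4%) and 90.9% of 750 autosomal peaks were in both, and 0 of 101 X peaks were in neither (upper limit 3.59%), against 3 of 750. In the middle 20% 45 of 93 X peaks (48.4%, 37.9 to 59.0%) and 41.2% of autosomal peaks were in both. The shares in neither were 9.68% on X (4.52 to 17.6%) and 7.12% on the autosomes. In the fourth 20% the order of the shares in both was the other way, with 5 of 132 X peaks (3.79%, 1.24 to 8.62%) and 7.65% of autosomal peaks. In neither were 67 X peaks (50.8%, 41.9 to 59.6%) and 43.8% of autosomal peaks. In the weakest 20%, 143 of 161 X peaks (88.8%, 82.9 to 93.2%) and 84.8% of autosomal peaks were in neither. In both were 3 of 161 X peaks (1.86%, 0.386 to 5.35%) and 2 of 690 autosomal peaks (0.290%).

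**Figure D4:**
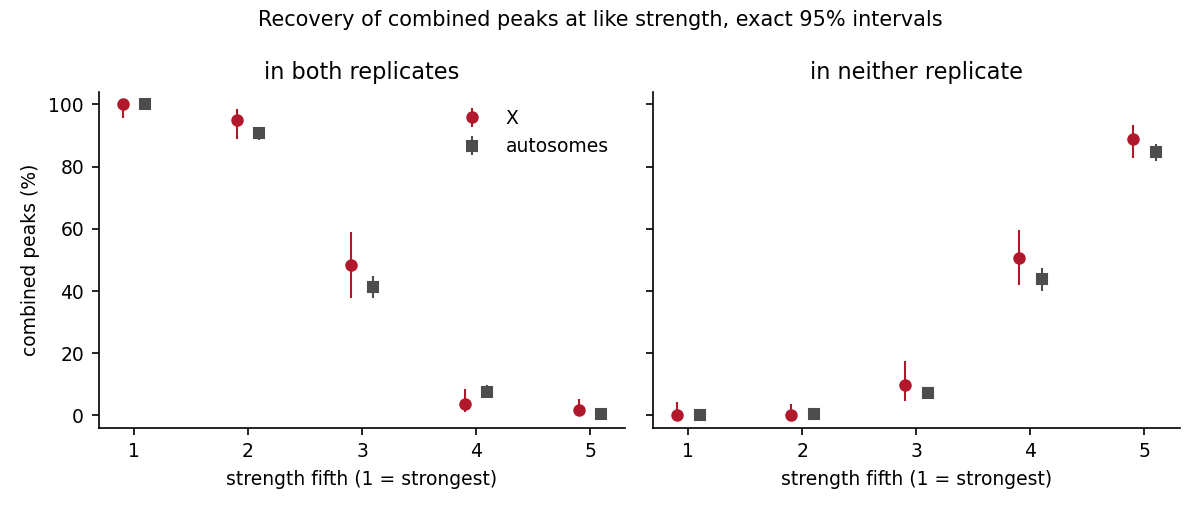
Share of combined peaks, in percent, that overlapped a peak of both replicates (left) or of neither (right), in 5 strength groups of the combined list, for X (red) and autosomes (grey), with exact 95% binomial intervals. Shares of X and autosomes lie close together in each group, at 48.4% and 41.2% in both replicates in the middle one.

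Among the autosomes, I and V lay farther from 1 than X in both measures of recovery at like strength. The odds of being in neither replicate, each autosome against the other 4, were 2.24 on I (1.65 to 3.03) and 0.674 on V (0.525 to 0.864), on either side of the X value, while II, III and IV lay between 0.782 and 0.920. Set directly against V, X peaks had 1.72 times the odds of being in neither (1.20 to 2.46) and 0.995 times the odds of being in both (0.613 to 1.61). Between the replicate lists themselves X was close to the autosomes. Of replicate 1 peaks, 234 of 352 on X (66.5%, 61.3 to 71.4%) and 68.4% on the autosomes overlapped a replicate 2 peak. Of replicate 2 peaks, 235 of 246 on X (95.5%, 92.1 to 97.7%) and 94.9% on the autosomes overlapped a replicate 1 peak. At like strength the odds ratios of X to autosomes were 1.24 (0.891 to 1.72) for replicate 1 and 1.32 (0.674 to 2.59) for replicate 2, computed without the strongest groups, in which every peak was found. Matched X peaks were stronger in replicate 1 in 186 of 225 cases (82.7%, 77.1 to 87.4%), against 81.9% on the autosomes.

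**Figure D5:**
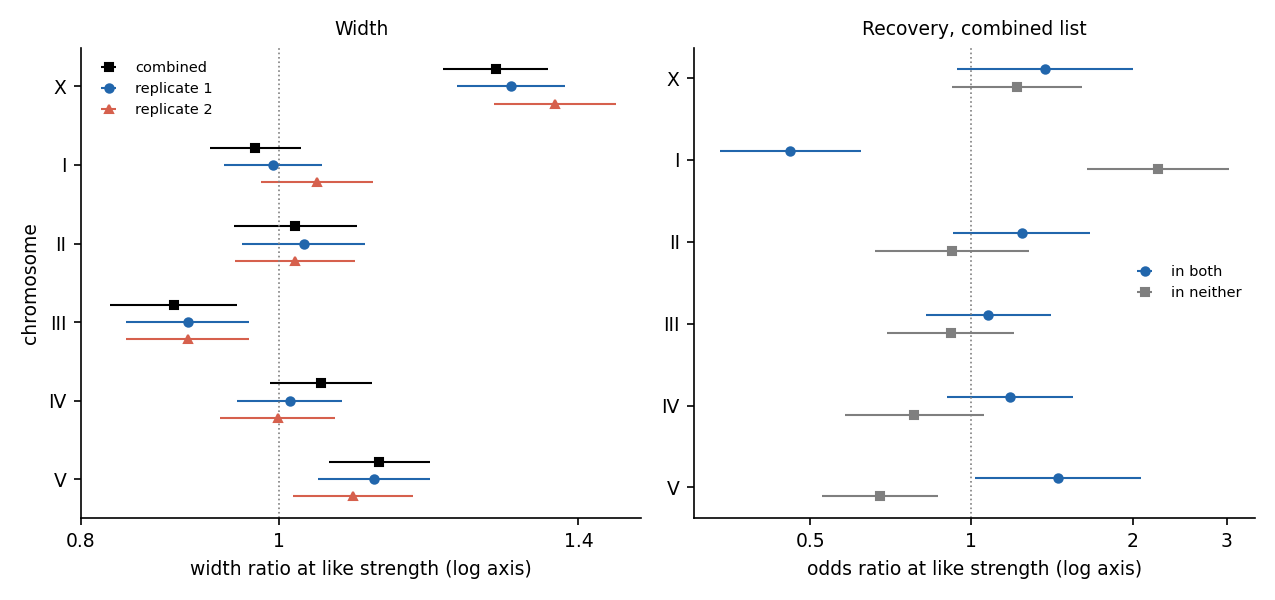
Ratios at like strength with 95% intervals (log axes) for X against the autosomes and for each autosome against the other 4. Left, peak width in the 3 lists, where X lies highest, at 1.28 to 1.36. Right, odds of a combined peak being in both or in neither replicate, where both X intervals cross 1.

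No X peak missing from a replicate was in the strongest 20% of the combined list. The strongest in neither replicate were 5275211 to 5275617 (q = 7.07e-10, rank 2212), 8723610 to 8724350 (q = 3.18e-09) and 13104798 to 13105301 (q = 4.16e-09). Those in replicate 1 alone were led by 10377515 to 10378196 (q = 8.39e-15, rank 1502), 15610256 to 15611472 (q = 1.52e-14) and 8545975 to 8546384 (q = 1.69e-14). Those in replicate 2 alone were led by 12876589 to 12879053 (2465 bp, q = 3.37e-13, rank 1662), 7653600 to 7654495 (q = 4.95e-11) and 4662260 to 4663289 (q = 8.19e-10). In the other direction, 7 of 352 X peaks of replicate 1 and 1 of 246 of replicate 2 had no combined peak, with strengths of at most 5.81 and 4.10. A combined peak was present for 345 of 352 X peaks and 2658 of 2685 autosomal peaks of replicate 1. For replicate 2 these counts were 245 of 246 on X and 1939 of 1942 on the autosomes.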

How the data were processed

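The authors deposited 3 peak lists, made with PeakSeq on WormBase WS180 per the file headers and columns. For every peak they deposited coordinates and a q value, without read counts. No source used here gives the aligner, the control or how the replicates were combined. The input samples had 0 lists here and entered no comparison.

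From these lists, overlap was counted at 1 bp or more. Shares carry exact 95% Clopper-Pearson intervals and densities exact Poisson intervals, which cover counting error only and treat peaks as independent. The 5 strength groups of 20% were cut on each whole list. Width (linear) and recovery (logistic) were fitted over all peaks of a list with a natural cubic spline of 4 degrees of freedom on log10 strength. Standard errors were clustered on 500 kb bins. Both fits were run on outcomes simulated from a model of the same form, which does not show that the 95% intervals hold for these peaks. Chromosome extents are the largest coordinates in any list. Regions named are the 15 strongest, the 10 widest, the 5 clusters with most peaks (3 or more, 5000 bp, with 1 more that ties in number), the 5 longest gaps, the 3 densest and sparsest bins (of which the text gives the first and those with a point of their own) and the 3 strongest peaks missing from either or both replicates. Members, comparisons and rules were chosen with earlier results of these data known. The fits against V and between replicate lists were added afterwards. Tools were python 3.11.15, pandas 2.3.3, scipy 1.17.1 and statsmodels 0.14.6.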

Additional observations from a re-analysis of the deposited data

How the results depend on the processing

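Of 41 alternative values, 28 kept their direction and their side of 1, or stayed within the interval or 1.5 times the count reported. Another 11 moved outside that range, among them every alternative of the density ratio and of the cluster number. The 2 that reversed were odds ratios with 1 replicate left out. There, recovered and not recovered are opposites, so the odds ratios are reciprocals. Since both main ratios were above 1, a reversal in each such pair was fixed in advance. The width ratio of X to autosomes at like strength stayed between 1.24 and 1.36 with an interval above 1 in the 8 alternatives run. The X to autosome density ratio was 0.592 to 0.613 when a single replicate list was used, 0.544 in the stronger 50% of combined peaks, 0.596 among peaks in both replicates and 0.802 without chromosome III. The central 50% of X held 47.0% of its peaks, a share that differs from that of the centre part by construction. The 29 clusters became 5 to 14 in a single replicate list, 14 with at most 2000 bp between neighbours, 50 with at most 10000 bp and 3 in the stronger 50% of combined peaks, so their number rests on weak peaks and on the distance allowed. At like strength, with 1 replicate left out, the odds ratio of X to autosomes ran from 0.90 to 1.17 for being recovered and from 0.853 to 1.11 for not being recovered, with 0.90 and 1.11 from replicate 1 alone and 1.17 and 0.853 from replicate 2 alone. Every interval of these odds ratios, under each alternative fitted, included 1. The odds of being in neither could not be fitted in the stronger 50%, where 0 of 222 X peaks were in neither. No paired analysis was possible because peak lists were at hand only for ChIP, so that the numbers shared with input paired no values. Depth is unknown, so neither weak calls nor missing ones can be set against reads.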
